A study of Mus musculus with 12 samples.

Results

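The genes described are members of the BCL2 family, the proteins that decide at the mitochondrial outer membrane whether a cell lives or dies by apoptosis. They were chosen by name, and 9 of the 10 listed members were analysed, out of 23279 genes with a symbol on the array. The pro-survival members were Bcl2, Bcl2l1 and Mcl1. The pro-death members were the effector Bak1 and the BH3-only genes Bid, Bcl2l11, Bbc3, Bmf and Pmaip1. Bax, the other effector on the list, is not analysed here. By the labels, RNA came from blood monocytes sorted as CD11b+, CD115+ and Ly6C high, the inflammatory kind. It was measured on 12 single-colour arrays, 6 with the genotype label TRIM33 and 6 labelled WT. The series title concerns TRIM33 deficiency and the resolution of colonic inflammation. All 12 arrays carry the strain label C57BL/6 LyzCre and an age of 6 to 8 weeks. LyzCre names a Cre recombinase expressed from a lysozyme locus, which is active in granulocytes as well as monocytes and macrophages, and the labels leave unstated whether the WT mice carried it. Both genotypes have 2 arrays titled as mixes and 4 that are not, and no label says whether an array holds 1 animal or a pool. The p-values therefore measure only the spread from array to array, part of which may be technical.

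BCL2, BCL-XL (the product of Bcl2l1) and MCL1 hold the effectors BAX and BAK in check, and BAX or BAK, once active, open pores that release cytochrome c. The BH3-only proteins are sensors: BIM (Bcl2l11), PUMA (Bbc3), BID, BMF and NOXA (Pmaip1) bind the pro-survival proteins, and some of them also activate the effectors directly. MCL1 is short-lived and is required by many myeloid cells, PUMA and NOXA are classical p53 targets, and BIM and BMF are known for responses to growth factor withdrawal. Blood monocytes live briefly, and colony-stimulating factors keep them alive. Much control of this family lies in protein turnover and phosphorylation, which an RNA array does not measure.

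The targeted gene followed its label. Trim33 read 6.06 to 6.23 on the log2 scale in TRIM33 arrays and 6.81 to 7.05 in WT arrays, and the groups did not overlap. No source used here says whether its probes lie in the deleted part. Clustering by correlation over all features gave 2 sets of arrays, each with 3 TRIM33 and 3 WT arrays. The Y set read 5.73 to 6.77 for the Y-linked gene Kdm5d and 3.36 to 3.64 for Xist, which is transcribed from the inactive X chromosome. The Xist set read 2.47 to 3.27 for Kdm5d and 9.01 to 10.18 for Xist. The mean of 13 cell cycle genes, of 14 listed, was 4.65 to 5.75 in the Y set and 9.44 to 9.51 in the Xist set. The sorted antigen's gene Ly6c2 read 12.27 to 12.55 in the Y set and 12.20 to 12.45 in the Xist set, and Csf1r, which encodes CD115, read 10.88 to 11.09 and 9.73 to 10.12 in the same order. All 4 mixes lay in the Y set, beside TRIM33 replicate 1 and WT replicate 4.

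The first comparison asks whether survival and death genes differ between TRIM33 and WT in cells labelled as inflammatory monocytes. Both sets carry that label, though cell cycle genes, the precursor enzyme genes Mpo and Elane, and Cd34 read higher in the Xist set. No member passed the test. With genotype alone in the model, 0 of the 9 had a Benjamini-Hochberg adjusted p under 0.05 by limma, as did 0.0215% of all genes, and 0 had an unadjusted p below that value, as did 3.07% of all genes. A model that also held the array set as a block again gave counts of 0 and 0, beside 0.0387% and 5.28% of all genes. In no member did the 6 TRIM33 arrays lie wholly above or below the 6 WT arrays, which 0.198% of all genes did. The members' differences, TRIM33 minus WT, lay between -0.32 and 0.15 on the log2 scale with a median of 0.0035. The median of all genes was -0.014. Of the 9 members, 6 lay above 0 and 3 below, and 45.0% of all genes lay above 0.

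Among the pro-survival genes, Bcl2 had the widest difference and also the widest spread. It read 7.17, 6.06 and 6.35 in the TRIM33 arrays of the Y set and 5.98, 6.46 and 6.67 in those of the Xist set, against 7.34, 6.56 and 6.36 and then 6.78, 7.25 and 6.29 in the WT arrays of the same sets. The genotypes overlapped in both sets. Its log2 difference was -0.32 (SE 0.231), with a limma adjusted p of 1.0, or 0.946 with the block. After the set means were subtracted, Bcl2 had a standard deviation of 0.472, above that of 97.6% of all genes.

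Mcl1 read 10.39, 10.52 and 10.44 in the TRIM33 arrays of the Y set and 9.57, 9.83 and 9.72 in those of the Xist set, against 10.42, 10.62 and 10.43 and then 9.75, 9.56 and 9.67 in WT arrays. The genotypes overlapped in each set, and the difference was 0.0035 (SE 0.230 without the block and 0.0799 with it). With the block, the 95% confidence interval ran from -0.17 to 0.17. Bcl2l1 read 5.72 to 6.30, with a median of 5.96, in TRIM33 arrays and 5.60 to 6.42, with a median of 5.88, in WT arrays. Its difference was 0.042 (SE 0.139), with an interval from -0.19 to 0.27 with the block.

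**Figure D1:**
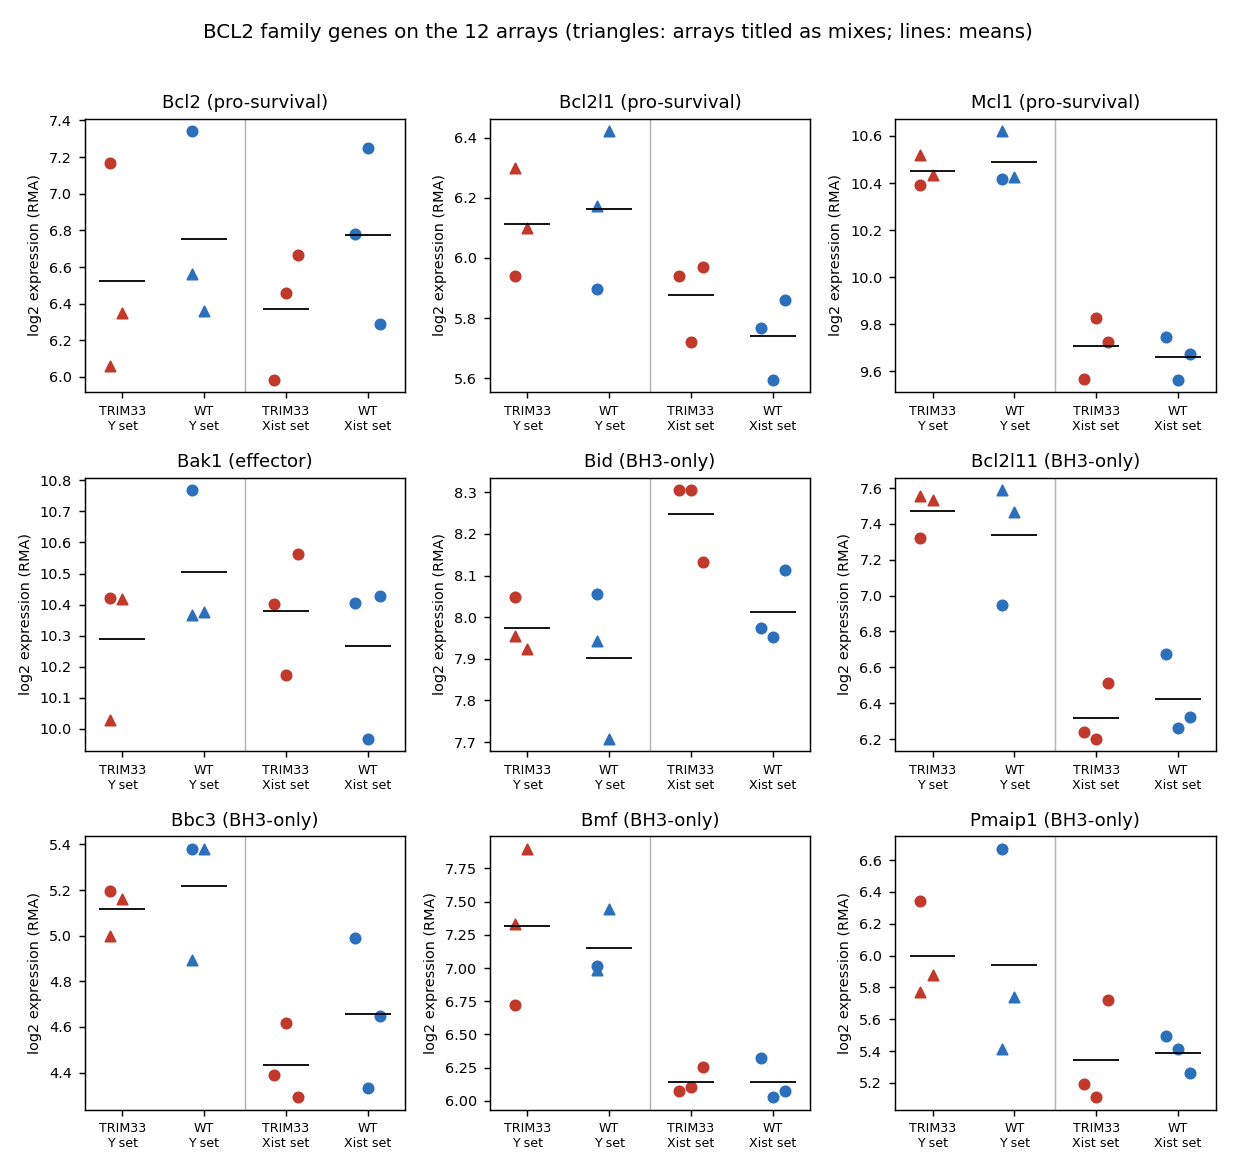
Log2 expression of the 9 analysed BCL2 family genes (vertical axis of each panel, RMA values) on each of 12 arrays, by array set and genotype; triangles are arrays titled as mixes, circles the others, and lines the mean of 3 arrays. TRIM33 and WT points overlap in the Y set for every gene, while Mcl1, Bcl2l11 and Bmf part the Y set from the Xist set without overlap.

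The effector and the BH3-only genes were likewise not called. Bak1, whose protein forms the pore, averaged 10.33 ± 0.196 in TRIM33 and 10.39 ± 0.255 in WT arrays (SD, n = 6 each), a difference of -0.052 (SE 0.128). Bcl2l11 averaged 6.90 ± 0.645 and 6.88 ± 0.563 in the same order, a difference of 0.017 (SE 0.312 without the block and 0.123 with it). Its interval with the block was -0.25 to 0.28. Bmf, whose protein is tied to the cytoskeleton, differed by 0.084 (SE 0.344) and Pmaip1 by 0.0032 (SE 0.254), with intervals of -0.26 to 0.43 and -0.39 to 0.40 with the block. Bbc3 averaged 4.78 ± 0.396 in TRIM33 and 4.94 ± 0.411 in WT arrays, a difference of -0.16 (SE 0.212), with an interval of -0.42 to 0.10 with the block. Bcl2 had the widest interval of the members with the block, -0.79 to 0.16.

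Bid, whose protein is cut by caspase-8 and then activates the effectors, had the smallest unadjusted p of the members. In the Xist set it read 8.31, 8.31 and 8.13 in TRIM33 arrays, against 7.97, 7.95 and 8.11 in WT arrays. The Xist-set genotypes did not overlap, though the nearest arrays read 8.13 in TRIM33 and 8.11 in WT. With 3 arrays against 3, such a split is easily reached, and its share over all genes was not counted. In the Y set Bid read 8.05, 7.95 and 7.92 in TRIM33 arrays, against 8.06, 7.94 and 7.71 in WT arrays, which overlap. The difference over all arrays was 0.15 (SE 0.0960; limma unadjusted p = 0.133, and 0.0908 with the block), and its adjusted p with the block was 0.937.

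Within each set alone, 3 against 3 arrays, 0 members passed and 0 had an unadjusted p under 0.05, beside 0.0344% and 4.57% of all genes for the Y set and 0.0129% and 4.99% for the Xist set. Among the arrays not titled as mixes the counts were 0 and 0 as well, where 0.00% of all genes passed and 2.43% had such an unadjusted p. No member's genotype difference was shown to depend on the array set. In a limma model with an interaction, 0 of 9 passed and 0 had an unadjusted p under 0.05, beside 0.00430% and 4.21% of all genes. The widest interaction was that of Bak1, at -0.22 within the Y set against 0.11 within the Xist set, an interaction of -0.33 (SE 0.246; unadjusted p = 0.206).

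**Figure D2:**
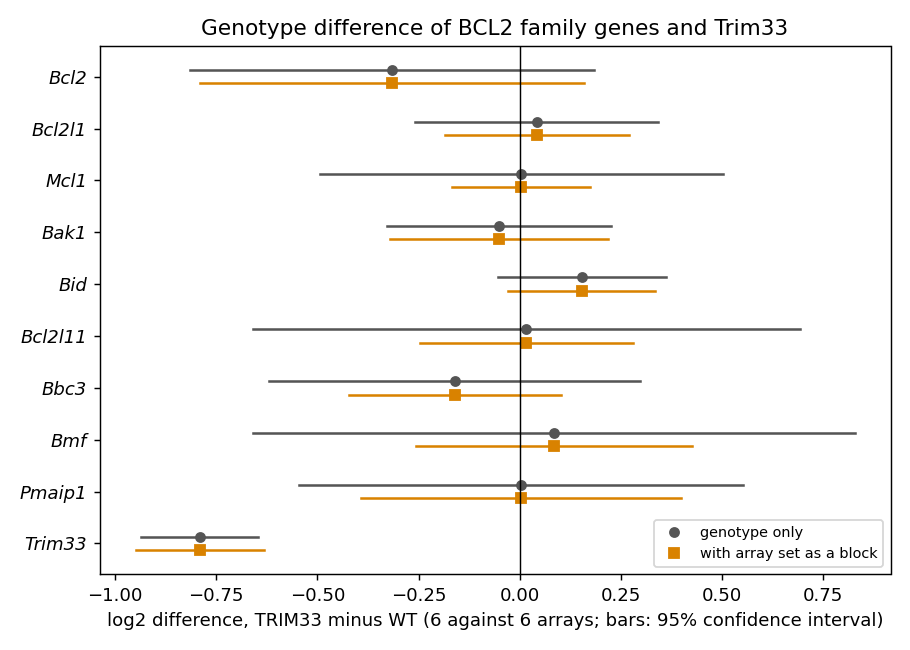
Log2 difference, TRIM33 minus WT, of each BCL2 family gene and of Trim33 (horizontal axis), with 95% confidence intervals from limma with genotype alone (circles) or also the array set as a block (squares), 6 against 6 arrays. Every BCL2 family interval spans 0 and Trim33 lies at -0.79.

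The rest of the death pathway gave the same count. Of 48 further genes measured, in lists of other family genes, apoptosome and caspase genes, death receptors, regulators of the members and mitochondrial membrane proteins, 0 passed limma for genotype in either model. Without the block, 1 of the 48 had an unadjusted p under 0.05, beside 3.07% of all genes, and with it 2 of the 48, beside 5.28%, so neither count stands above all genes. The first was Vdac2, an outer membrane channel that binds BAK, which differed by 0.25 (SE 0.0980). The other, with the block, was Bcl2a1a, which encodes a copy of the pro-survival protein A1 and differed by 0.80 (SE 0.280 with the block; limma unadjusted p = 0.0122 and adjusted p = 0.792). In the Xist set it read 5.93, 5.35 and 5.98 in TRIM33 arrays, against 4.39, 4.94 and 4.15 in WT arrays, without overlap. In the Y set it read 8.13, 6.24 and 7.39 in TRIM33 arrays, against 6.59, 6.99 and 7.16 in WT arrays, which overlap. With 3 arrays against 3, a split like that in the Xist set is easily reached. The share of all genes with such a split was not counted. The A1 genes are near-identical copies, so their probes may not tell them apart, and the neighbouring copy Bcl2a1b differed by 0.54 (SE 0.281 with the block). The third copy measured, Bcl2a1c, differed by -0.043 (SE 0.194 with the block). It read 2.56 to 3.89, below the array medians of 4.16 to 4.25. Of the others with the smallest p in their list, Bcl2l10, also below those medians, differed by -0.14 and Bcl2l13 by -0.16. Casp9 differed by -0.064, Cycs, the cytochrome c gene, by 0.077, Fas by 0.16 and Casp8 by 0.046. Mdm2, the p53 antagonist, differed by -0.070, Fbxw7, which marks MCL1 for degradation, by -0.075 and Mfn2 by -0.20.

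Most members differed more between the array sets than between genotypes. The median absolute difference of all genes was likewise larger between the sets, 0.145, than between genotypes, 0.080. The sets were found by clustering that used every gene, the members included, so the set differences are a description and carry no test. Of the 9 members 8 were higher in the Y set, as were 49.7% of all genes. The members' median difference, Y set minus Xist set, was 0.60 on the log2 scale, where the median of all genes was -0.0015. For 3 members, Mcl1, Bcl2l11 and Bmf, all Y-set arrays lay above all Xist-set arrays, a pattern that 6.59% of all genes showed, and 0 members showed the opposite, beside 7.45% of all genes. Sex-linked transcripts, cell cycle genes and preparation all part or partly part the sets, so their contributions cannot be told apart. In bulk RNA, moreover, fewer cells of a type and less RNA per cell cannot be told apart.

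Bmf and Bcl2l11, a pair of BH3-only genes, had the widest set differences of the members. Bmf read 6.72 to 7.90, with a median of 7.17, in the Y set and 6.03 to 6.33, with a median of 6.09, in the Xist set, a difference of 1.09. Bcl2l11 read 6.95 to 7.59, with a median of 7.502, in the Y set and 6.20 to 6.68, with a median of 6.29, in the Xist set, a difference of 1.03. The lowest Y-set array for Bcl2l11 was WT replicate 4, at 6.95, and the highest Xist-set array was WT replicate 1, at 6.68. Set differences at least as large, in either direction, were found for 4.06% of all genes in the case of Bmf and 4.45% in that of Bcl2l11.

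Mcl1 stood out by how tightly its arrays lay within a set. It averaged 10.47 ± 0.0860 in the Y set, against 9.68 ± 0.104 in the Xist set (SD, n = 6 each), a difference of 0.78. Once set means were subtracted, only 3.39% of all genes had a smaller standard deviation. The pro-survival gene Mcl1 was thus higher in the same arrays as the death genes Bcl2l11 and Bmf.

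The bases before the start sites of these 3 genes are shown because they are the members that moved together between the sets. Each window holds the 250 bases before the RefSeq start nearest to the gene's outermost annotated start, 5′ to 3′ on the gene's strand in GRCm38.p6, for Mcl1 at chr3:95658471-95658720 (plus strand), Bcl2l11 at chr2:128125788-128126037 (plus strand) and Bmf at chr2:118549687-118549936 (minus strand). Capitals mark matches on either strand to the motifs searched.
Mcl1: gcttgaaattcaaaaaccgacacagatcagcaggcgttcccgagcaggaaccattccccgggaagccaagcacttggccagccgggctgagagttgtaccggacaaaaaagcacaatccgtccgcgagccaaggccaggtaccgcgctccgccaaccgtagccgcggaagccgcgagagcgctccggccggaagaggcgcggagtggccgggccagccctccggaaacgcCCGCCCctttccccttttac
Bcl2l11: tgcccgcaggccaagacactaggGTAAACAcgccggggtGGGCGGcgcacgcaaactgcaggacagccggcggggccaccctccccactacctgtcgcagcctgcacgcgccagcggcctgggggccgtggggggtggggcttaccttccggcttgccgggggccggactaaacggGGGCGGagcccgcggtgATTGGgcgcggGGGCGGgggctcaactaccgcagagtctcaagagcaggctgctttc
Bmf: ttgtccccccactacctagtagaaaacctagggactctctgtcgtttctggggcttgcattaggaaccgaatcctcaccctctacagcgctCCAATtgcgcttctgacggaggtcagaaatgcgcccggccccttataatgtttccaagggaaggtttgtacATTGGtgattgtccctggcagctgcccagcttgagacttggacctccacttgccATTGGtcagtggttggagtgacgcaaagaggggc

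The 6 motifs were the FOXO motif GTAAACA, the E-box CACGTG, the cAMP response element TGACGTCA, the CCAAT box CCAAT, the GC box GGGCGG and the TATA box TATAAA, each with its reverse complement, and none contains another. Bcl2l11 held 1 FOXO match, which begins 227 bases before the start, 1 CCAAT match and 3 GC boxes. Bmf held 3 CCAAT matches and Mcl1 a single GC box. Among the equivalent windows of 27024 genes, 3.06% held the FOXO letters, 34.5% a CCAAT match and 33.0% a GC box. The FOXO letters are thus the scarcest of the motifs found here, and they were present in Bcl2l11 alone among the 8 members with a window. Bcl2l11 shared the CCAAT letters with Bmf and the GC box with Mcl1, and no motif was present in all 3 windows. A match describes letters and is not evidence of a bound site.

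**Figure D3:**
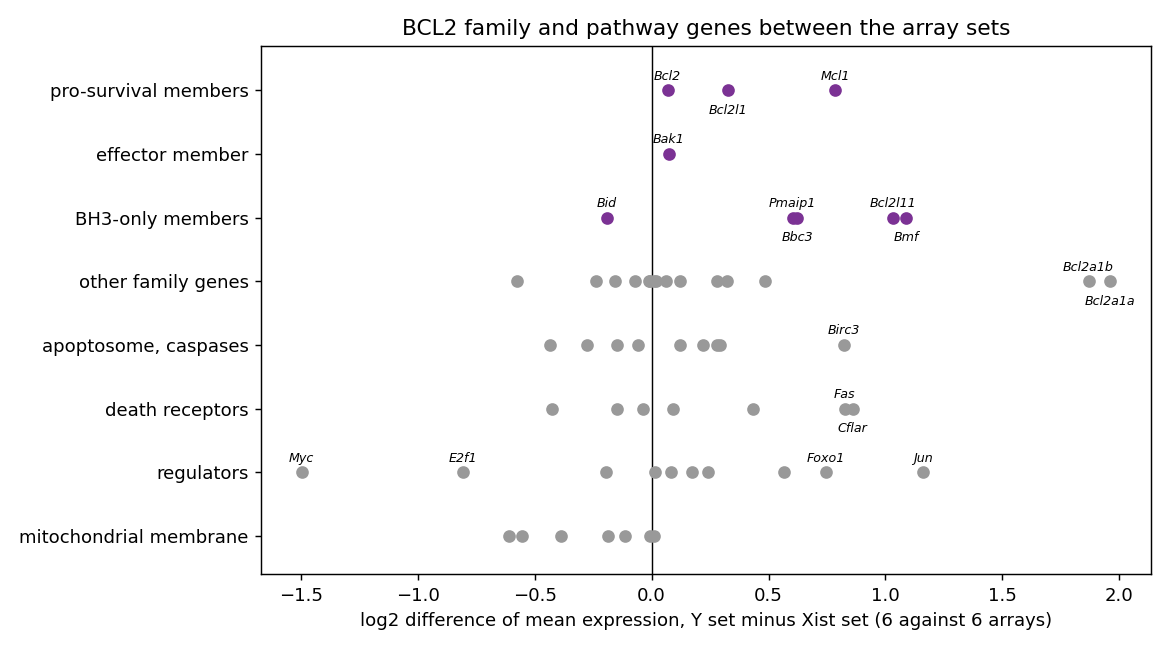
Difference in mean log2 expression, Y set minus Xist set, 6 against 6 arrays (horizontal axis), for BCL2 family members (purple) and the other pathway genes by list (grey); members and genes beyond 0.7 are named. Bmf, Bcl2l11 and Mcl1 lie at 1.09, 1.03 and 0.78, Bid at -0.19, Bcl2a1a at 1.96 and Myc at -1.50.

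The other members differed less between sets, and their arrays overlapped. Bbc3 read 4.89 to 5.38 in the Y set and 4.29 to 4.99 in the Xist set, a difference of 0.62, with WT replicate 1 the Xist-set array inside the Y-set range. Pmaip1 read 5.41 to 6.67 in the Y set and 5.11 to 5.72 in the Xist set, a difference of 0.60. Bcl2l1 read 5.90 to 6.42 in the Y set and 5.60 to 5.97 in the Xist set, a difference of 0.33. Bcl2 differed by 0.069 and Bak1 by 0.073, and Bid was the member lower in the Y set, by -0.19, reading 7.71 to 8.06 there and 7.95 to 8.31 in the Xist set.

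Set against each other within arrays, survival and death members mostly overlapped between groups. Levels of different probes are not comparable, but the difference of log2 values between a pair of genes on the same array can be followed from array to array. The 5 pairs followed were picked by hand, and none holds Bak1, Bid or Bbc3. Other pairs were not examined. Mcl1 minus Bcl2l11 was 2.90 to 3.63 in TRIM33 arrays and 2.96 to 3.47 in WT arrays, which overlap. It was 2.90 to 3.47 in the Y set and 3.07 to 3.63 in the Xist set, with means that differed by -0.25, Y set minus Xist set. Bcl2l1 minus Bcl2l11 separated the sets, at -1.44 to -1.05 in the Y set and -0.91 to -0.30 in the Xist set. Bcl2l11 alone also parted the sets, and the share of gene pairs with such a split was not counted. Bcl2 minus Bcl2l11 had the widest set shift of the 5 pairs, -0.96, with ranges of -1.49 to 0.39 in the Y set and -0.26 to 0.99 in the Xist set that overlap. Mcl1 minus Bmf was 2.54 to 3.67 in the Y set and 3.42 to 3.72 in the Xist set, a shift of -0.30. Mcl1 minus Pmaip1 ran the other way, at 3.75 to 5.21 in the Y set and 4.003 to 4.72 in the Xist set, a shift of 0.18. With each gene centred on its own mean, the mean of the 3 pro-survival members minus that of the 6 pro-death members was -0.31 to 0.11 in TRIM33 arrays and -0.086 to 0.34 in WT arrays. The same quantity was -0.31 to 0.12 in the Y set and -0.073 to 0.34 in the Xist set. It overlapped in both divisions, and the means differed by -0.097, TRIM33 minus WT, and by -0.14, Y set minus Xist set.

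Of the 48 other pathway genes 26 were higher and 22 lower in the Y set, with a median difference of 0.013, and 6 in each direction did so without overlap, where 6.59% of all genes were higher and 7.45% lower in that way. The A1 copy Bcl2a1a read 6.24 to 8.13 in the Y set and 4.15 to 5.98 in the Xist set, and Bcl2a1b 7.17 to 9.19 and 5.28 to 6.89 in the same order. Birc3, an inhibitor of apoptosis protein, differed by 0.82, Cflar, which blocks caspase-8 at death receptors, by 0.86, and the death receptor Fas by 0.83, each without overlap. Xiap, a caspase inhibitor, differed by 0.29, Casp6 by 0.28, Bnip3l by 0.48 and the TNF receptor gene Tnfrsf1a by 0.43. Lower in the Y set were Bcl2l12 by -0.57, Htra2, a mitochondrial protease, by -0.43, and the death receptor adaptor Fadd by -0.43. Of 7 mitochondrial membrane genes 6 were lower in the Y set, with Vdac3 at -0.61, Dnm1l, a fission protein, at -0.55, Vdac1 at -0.39 and Mfn1 at -0.18.

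Regulators known to act on these members differed in both directions. Foxo1, a transcription factor known to act on Bcl2l11, read 6.63 to 6.90 in the Y set and 5.90 to 6.14 in the Xist set, a difference of 0.75 without overlap. Jun differed by 1.16, with arrays that overlap. Myc read 5.15 to 6.12 in the Y set and 6.90 to 7.30 in the Xist set, a difference of -1.50, and E2f1, which drives S phase genes, differed by -0.81, both without overlap. All 13 measured cell cycle markers were lower in the Y set without overlap. Markers of other cells and of precursors moved with the sets as well. The means of the 8 Ly6C-low monocyte markers were 7.55 to 8.498 in the Y set and 6.42 to 6.79 in the Xist set. Those of 5 platelet genes were 4.99 to 6.49 and 3.90 to 4.06 in the same order, and those of 11 neutrophil genes 4.601 to 5.53 and 6.36 to 6.96. In the neutrophil list 8 genes were lower and 3 higher in the Y set. The precursor enzyme genes Mpo and Elane read up to 5.56 in the Y set and at least 10.27 in the Xist set. The defining marker Ly6g stayed at 2.87 to 3.82 on all arrays. Mmp8 was higher in the Y set, at 10.045 to 10.97 against 9.46 to 10.11, with overlap. Of the Ly6C-low markers 7 were higher in the Y set, 5 of them without overlap, while Spn was lower, at 8.23 to 8.995 against 8.91 to 9.30. T cell markers averaged 3.61 to 4.196 in the Y set and 3.09 to 3.45 in the Xist set, and B cell markers, which overlapped, 4.59 to 5.42 and 4.30 to 4.64. Dendritic cell markers averaged 5.58 to 5.94 in the Y set and 4.57 to 5.17 in the Xist set. In that list H2-Ab1 and Flt3 parted the sets, while Xcr1, Zbtb46 and Siglech overlapped. Eosinophil and basophil markers averaged 3.37 to 3.61 in the Y set and 4.21 to 4.73 in the Xist set, and progenitor markers 4.05 to 4.30 and 4.82 to 5.02. Of these genes Prg2, Mcpt8 and Cd34 parted the sets, while Epx, Siglecf, Cpa3, Kit, Gata2 and Meis1 overlapped. Between genotypes, the means of every marker list overlapped over all arrays. Lower in TRIM33 arrays were all 6 NK cell, 5 dendritic cell and 8 of 9 immediate early and heat shock genes. Higher were 11 of 13 cell cycle genes and 6 of 8 Ly6C-high markers, beside 45.0% of all genes. NK cell and Ly6C-high markers parted the genotypes in the Y set, and eosinophil and basophil markers in the Xist set. With 3 arrays against 3, such splits are easily reached. The part of these cells in the members' set and genotype differences was not tested.

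Within the Y set, Bcl2 and Pmaip1 were lower in the mixes than in the arrays not titled as mixes. Bcl2 read 6.06 and 6.35 in TRIM33 mixes and 6.56 and 6.36 in WT mixes, against 7.17 in TRIM33 replicate 1 and 7.34 in WT replicate 4. Pmaip1 read 5.77 and 5.88 in TRIM33 mixes and 5.41 and 5.74 in WT mixes, against 6.34 and 6.67 in the same other arrays. Neither gene overlapped between preparations, and the Xist set, which has no mixes, held Bcl2 at 5.98 to 7.25 and Pmaip1 at 5.11 to 5.72. Bcl2l11 ran the other way, at 7.55, 7.54, 7.59 and 7.47 in mixes, against 7.32 and 6.95 in the other arrays. Also without overlap, Bcl2l1 and Mcl1 were higher in the mixes, and Bak1 and Bid were lower. Bmf and Bbc3 overlapped. With 4 arrays against 2, a split without overlap is easily reached. Its share over all genes was not counted, so the number of members that split is not a result about them.

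In a limma model with genotype, array set and preparation, which was fitted after these values had been seen, 0 of the 9 members passed for preparation and 5 had an unadjusted p under 0.05, beside 0.670% and 10.7% of all genes. The difference, mixes minus other arrays, was -0.92 for Bcl2 (SE 0.232; adjusted p = 0.101), -0.81 for Pmaip1 (SE 0.183; adjusted p = 0.0659), 0.54 for Bmf (SE 0.197; adjusted p = 0.296), 0.40 for Bcl2l11 (SE 0.154; adjusted p = 0.337) and 0.33 for Bcl2l1 (SE 0.137; adjusted p = 0.392), by limma. Immediate early and heat shock genes, which respond to the handling of cells, averaged 7.90 to 8.82 in the mixes and 8.76 to 9.46 in the other Y-set arrays, and 7.20 to 7.64 in the Xist set. Their means overlapped between the preparations. The T cell, eosinophil and basophil, platelet and cell cycle lists parted the preparations without overlap, and the remaining lists overlapped. So few arrays easily reach such a split. T cell markers averaged 3.61 to 3.99 in the mixes and 4.06 to 4.196 in the other Y-set arrays, and eosinophil and basophil markers 3.37 to 3.54 and 3.59 to 3.61. Platelet markers averaged 5.67 to 6.49 in the mixes and 4.99 to 5.62 in the other arrays, and cell cycle genes 4.87 to 5.75 and 4.65 to 4.77. The part of all these in the preparation differences was not tested.

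**Figure D4:**
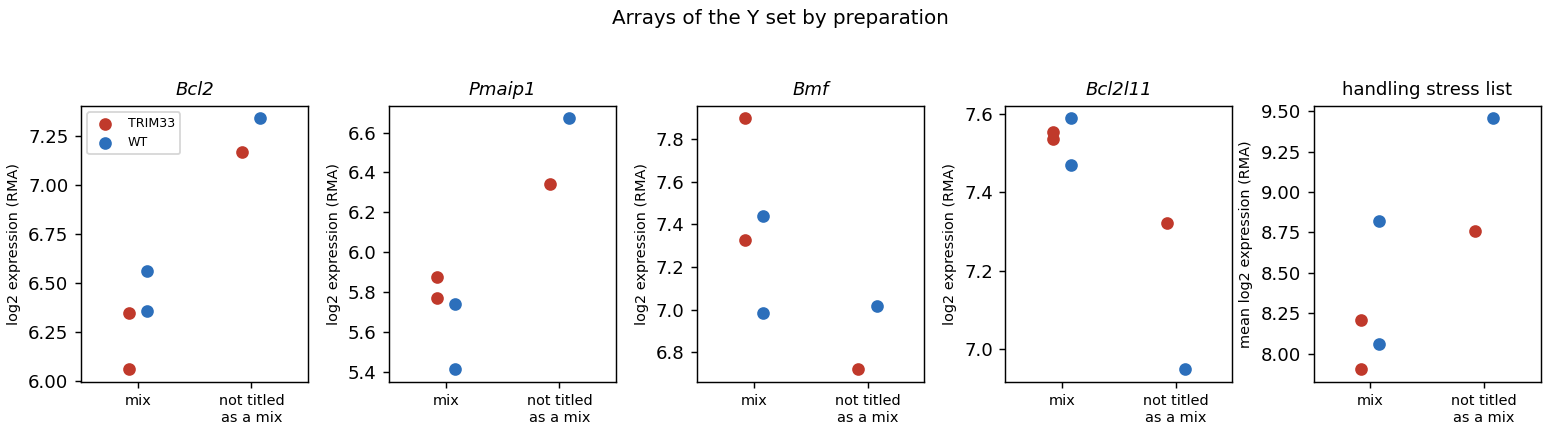
Log2 expression of Bcl2, Pmaip1, Bmf and Bcl2l11, and the mean log2 value of 9 handling stress genes (vertical axes), on the 6 arrays of the Y set by preparation, TRIM33 in red and WT in blue. Bcl2 and Pmaip1 are lower in all 4 mixes than in both other arrays, while Bcl2l11 is higher in all 4.

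The genes whose patterns were nearest to those of Bcl2, Mcl1, Bcl2l11 and Bbc3 were sought by Pearson's r over the 12 arrays after the set means were subtracted. These are the top 3 of all other genes for each member, so high values are a product of the search and are given as a description. For Bcl2l11 they were Acbd5, Bahcc1 and Baz2a, with r of 0.919, 0.919 and 0.914. For Mcl1 they were Uhrf1bp1, Tradd and 4930524C18Rik, with r of 0.936, 0.930 and 0.898. Tradd, the adaptor of TNF receptor 1, read 6.01 to 6.46 over all arrays, so its whole range was narrow. For Bcl2 they were Cyp3a57, Frg2f8 and Nipsnap3a, with r of 0.922, 0.920 and 0.920, and for Bbc3 Mir100hg, Ntrk2 and Mir26a-1, with r of 0.916, 0.907 and 0.906. All 6 of these had mean values of 2.36 to 3.46, below the array medians of 4.16 to 4.25.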

How the data were processed

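The deposited table holds log2 values, 1 per gene-level feature, for 24479 features on 12 arrays. The authors made them with RMA and Partek, per the submitters' processing notes. Their versions, the chip definition and a possible correction for batches appear in none of the sources used here. RMA equalises the arrays' distributions and compresses differences of dim genes. Per the labels' protocols, 900 pg of RNA was amplified, which adds spread. Arrays carry no counting depth, so the number of arrays limits precision.

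Of the features, 23281 carried 1 symbol and 1198 none. For 2 symbols with several features the one of higher mean was kept, which left 23279 genes. Genes were tested with limma 3.58.1 in R 4.3.3 on log2 values, TRIM33 minus WT, with p-values adjusted by Benjamini-Hochberg over all genes and a threshold of 0.05, and checked on simulated data. Sets came from clustering arrays on 1 minus Pearson's r with average linkage. The labels' treatment text describes T cells, whereas the source names and design give monocytes, which were followed. Promoter sequences are RefSeq's, of GRCm38.p6.

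The members, lists and array sets were chosen with earlier results of these data known. All members were named, with Trim33. In each pathway list the genes named are those past the threshold or, with none, the 2 with the smallest p, and the 4 with the widest set difference. For 4 members the 3 genes of likest pattern are named. Bcl2a1a and Bcl2a1b under genotype and the marker genes were named after their values were seen. Of 155 listed genes, 142 were analysed. Tried alternatives are another variance model, covariates, normalizations, filters, array weights and arrays left out. Figures were drawn with matplotlib 3.10.9.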

Additional observations from a re-analysis of the deposited data

Results flagged for a closer look

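In 3 of the 78 groups of 6 arrays examined, those of 39 named genes in each genotype, a single array lay far from the rest by Dixon's test. Chance gives about 1 in 20 such groups when the arrays come from a single normal population. Each group pools 3 arrays of each set, so that rate does not hold for genes that differ between the sets. In those a single array is harder to flag. Pmaip1 read 6.67 in WT replicate 4, and the other WT arrays lay between 5.26 and 5.74. That array also had the highest mean of the handling stress genes, 9.46, and the part of that in the Pmaip1 value was not tested. Mfn2 read 5.46 in WT replicate 2, and the other WT arrays lay between 6.09 and 6.46. Tnfrsf1a read 8.85 in the same array, and the other WT arrays lay between 9.58 and 9.89.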

How the results depend on the processing

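The count of BCL2 family members past the threshold between genotypes was 0 under all alternatives run, as were the counts for the other pathway genes and for the interaction with the array set. Over all genes limma called 5 with genotype alone, 9 with the array set as a block, 9 with array set and preparation as covariates, 8 in the Y set alone, 3 in the Xist set alone and 0 in the arrays not titled as mixes, where 565 had an unadjusted p under 0.05. Leaving out single arrays gave 5 to 9 genes without the block, the highest without TRIM33 replicate 4, and 9 to 15 with it, the highest again without that array. Trim33 kept its direction throughout and missed the threshold in 3 smaller fits, within the Y set (adjusted p = 0.134), within the Xist set (0.227) and without the mixes (0.155). The fit with the mix number as a replicate block called 6 genes and 0 members. The mix numbers are not said to pair arrays, and over all genes the mix 1 minus mix 2 differences of the genotypes correlated at 0.118.

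Bcl2, Bid and Bbc3 kept their direction in all 38 alternatives, and none of the 9 members passed in any. Differences near 0 changed sign. In the Y set alone Bcl2l1 was -0.051 and Mcl1 -0.039, and Mcl1 was -0.040 after another quantile normalization. In the Xist set alone Bak1 was 0.11, Bcl2l11 -0.10, Bmf -0.00036 and Pmaip1 -0.048. Without the mixes Bmf was -0.074 and Pmaip1 -0.12. Without TRIM33 replicate 1 and WT replicate 4 together Bak1 was 0.0074 and Bcl2l11 -0.055. With single arrays left out, Bcl2 ran from -0.47 (without TRIM33 replicate 1) to -0.19 (without WT replicate 4), Bbc3 from -0.28 (without WT replicate 2) to -0.064 (without TRIM33 replicate 6) and Bid from 0.10 to 0.20. Bcl2l1 ran from -0.029 to 0.14, Mcl1 from -0.10 to 0.11, Bak1 from -0.14 to 0.025, Bcl2l11 from -0.11 to 0.16, Bmf from -0.15 to 0.24 and Pmaip1 from -0.13 to 0.20. The cause was not tested. The block fits with arrays left out, the fit with both covariates and that without TRIM33 replicate 1 and WT replicate 4 were chosen after seeing the data.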
